A study of Mus musculus with 12 samples.

Results

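The inflammatory mediator genes Ptgs2, Lif and Lcn2 were followed in mouse aortic endothelial cells that differ in the ETS transcription factors Ets1 and Ets2. They are 3 of 11015 genes measured, taken by symbol, with every probe set whose annotation names exactly 1 of these symbols. That gave 4 probe sets, 2 for Ptgs2 and 1 each for Lif and Lcn2. They were chosen by their group levels in these same arrays, so their levels and differences are given as a description, with no test.

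Endothelial cells from the aortas of 4-week-old mice were grown in DMEM-F12 with serum, heparin and endothelial growth supplement, and infected with a lentivirus carrying either eGFP alone or eGFP with Cre recombinase. The Ets1KO group was Ets1-/- and Ets2fl/fl with the eGFP virus (3 arrays). The Ets2KO group was Ets1+/+ and Ets2fl/fl with the Cre virus (3 arrays). The group labelled DKO was Ets1-/- and Ets2fl/fl with the Cre virus (2 arrays used), and WT was Ets1+/+ and Ets2+/+ with the eGFP virus (3 arrays). WT is thus the only group without floxed Ets2, and Cre and loss of Ets2 cannot be told apart. Short descriptions call the Ets1KO and Ets2KO samples wild type, while their titles and genotypes call them null, which was followed here. Replicates are named biological in the titles, but the number of animals is not stated, so the spread between arrays may be technical.

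Ptgs2 encodes cyclooxygenase-2, the inducible enzyme that turns arachidonic acid into the precursor of prostaglandins, which in vessels govern tone, permeability and pain signals. Lif encodes leukaemia inhibitory factor, a secreted cytokine of the interleukin-6 family that signals through gp130 (Il6st) and Stat3. Lcn2 encodes lipocalin-2, a secreted protein that binds bacterial siderophores and so withholds iron from microbes. All 3 are classical targets of inflammatory stimuli, acting through transcription factors such as NF-kappa-B and C/EBP, and ETS proteins bind DNA at a GGAA core.

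The promoters are shown because the 3 genes, chosen by their group levels, moved partly together over the arrays and the targeted factors read GGAA. RefSeq windows on GRCm38.p6 run from 250 bases before to 50 after the annotated start, 5′ to 3′ on the gene's strand, and all 3 genes matched. Ptgs2 lies at chr1:150099781-150100080 on the plus strand, Lif at chr11:4257318-4257617 on the plus strand, and Lcn2 at chr2:32387690-32387989 on the minus strand. Capitals mark GGAA, or TTCC where the core is on the other strand.
Ptgs2: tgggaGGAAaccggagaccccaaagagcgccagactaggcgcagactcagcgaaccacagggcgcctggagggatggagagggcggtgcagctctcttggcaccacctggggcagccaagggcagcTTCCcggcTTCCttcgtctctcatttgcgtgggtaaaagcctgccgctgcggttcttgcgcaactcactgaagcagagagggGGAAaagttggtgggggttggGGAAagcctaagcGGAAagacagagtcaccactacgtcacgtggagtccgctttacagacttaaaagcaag
Lif: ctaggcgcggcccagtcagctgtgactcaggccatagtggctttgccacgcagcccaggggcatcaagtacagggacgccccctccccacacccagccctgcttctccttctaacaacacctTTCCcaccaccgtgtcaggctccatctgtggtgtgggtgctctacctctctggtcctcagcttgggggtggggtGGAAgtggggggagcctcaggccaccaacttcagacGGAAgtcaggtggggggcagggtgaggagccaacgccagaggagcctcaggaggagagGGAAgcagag
Lcn2: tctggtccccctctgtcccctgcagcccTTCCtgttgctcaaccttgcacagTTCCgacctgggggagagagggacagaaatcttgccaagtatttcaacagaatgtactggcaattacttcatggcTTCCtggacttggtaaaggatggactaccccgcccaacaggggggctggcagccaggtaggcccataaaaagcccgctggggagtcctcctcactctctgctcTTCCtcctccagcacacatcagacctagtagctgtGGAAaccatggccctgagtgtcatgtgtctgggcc

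Read on both strands, the Ptgs2 window holds 6 GGAA cores, the Lif window 4 and the Lcn2 window 5. The median of 32851 promoters of the same length is 3, with quartiles of 2 and 5, and 96.0% hold at least 1. The longer ETS letters CCGGAAG are in none of the 3 windows and in 8.86% of all promoters. The kappa-B letters GGGNNNNNCC match once in Ptgs2, where the match overlaps a GGAA core, 5 times in Lif and once in Lcn2, and occur in 50.8% of promoters. Of the 5 matches in Lif, 3 overlap each other, of which 2 are the same letters read on both strands, so they fall on 3 separate stretches. The C/EBP palindrome TTGCGCAA, in 0.183% of promoters, is in the Ptgs2 window, as are the E-box CACGTG (7.15%) and TGACG, the core of the cAMP response element (20.8%), which overlap each other there. The AP-1 letters TGANTCA (7.81%) are in the Lif window. A match describes these letters only, and a missing one says nothing of the factor.

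Levels are deposited log2 values, and differences are given both on them and relative to array medians, because the arrays labelled DKO read lower in general. The median over the genes tested is 8.69 to 8.73 on the arrays labelled DKO and 9.37 to 9.50 on the other 9. As a result the median gene differs by -0.61 between the arrays labelled DKO and WT as deposited, and by 0.11 relative to array medians. In Ets1KO and Ets2KO the median gene stays within 0.03 of WT on both scales. Ets1 itself read 8.31 to 9.17 in Ets1KO, 10.02 and 10.29 on the arrays labelled DKO and 9.84 to 10.26 in WT, so on its brightest probe set the arrays labelled DKO do not show the Ets1 loss their label states. Of the other 3 Ets1 probe sets, 1 was lower there on both scales (6.49 and 7.05, against 8.69 to 8.83 in WT). Ets2, on its brighter probe set, read 9.35 to 10.13 in Ets2KO, 11.02 and 9.63 on the arrays labelled DKO and 9.72 to 10.70 in WT. As deposited all of these ranges overlap. Relative to array medians the arrays labelled DKO lay above Ets2KO without overlap, by 1.33, and their mean lay 0.90 above WT. On this probe set the arrays labelled DKO thus do not show the Ets2 loss their label states either. WT replicate 3 correlates best with Ets1KO replicate 3 (r = 0.924 over the genes tested), unlike the other arrays, which lie closest to one of their own group. Whether these probe sets lie within the deleted exons was not tested.

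Ptgs2 on its brighter probe set, 1417262_at, read 8.40, 8.17 and 8.81 in Ets1KO, 5.88, 6.09 and 4.25 in Ets2KO, 11.58 and 11.41 on the arrays labelled DKO, and 9.99, 10.50 and 7.52 in WT. The Ets2KO arrays all lie below every other array, and the arrays labelled DKO lie above every other array. Ets1KO falls inside the WT range, which WT replicate 3 widens downwards. Group means were 8.46 ± 0.32 in Ets1KO, 5.41 ± 1.01 in Ets2KO, 11.50 ± 0.12 on the arrays labelled DKO and 9.34 ± 1.59 in WT (SD; n = 3, 3, 2 and 3).

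Lif, probe set 1421207_at, read 7.03, 6.72 and 6.72 in Ets1KO, 6.45, 6.82 and 6.33 in Ets2KO, 8.63 and 12.30 on the arrays labelled DKO, and 11.07, 10.11 and 6.32 in WT. Both single knockouts sit in a narrow band that WT replicate 3 shares, while WT replicates 1 and 2 stand well above it. The arrays labelled DKO differ from each other by more than the single knockouts do from WT on average, yet both lie above every single knockout array. Means were 6.82 ± 0.18 in Ets1KO, 6.53 ± 0.26 in Ets2KO, 10.47 ± 2.60 on the arrays labelled DKO and 9.17 ± 2.51 in WT.

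Lcn2, probe set 1427747_a_at, read 5.94, 5.49 and 9.24 in Ets1KO, 5.77, 9.98 and 7.57 in Ets2KO, 11.63 and 13.13 on the arrays labelled DKO, and 13.12, 11.59 and 7.98 in WT. Each single knockout group spreads over several log2 units, and 1 array of each, Ets1KO replicate 3 and Ets2KO replicate 2, lies above WT replicate 3. Means were 6.89 ± 2.05 in Ets1KO, 7.78 ± 2.11 in Ets2KO, 12.38 ± 1.06 on the arrays labelled DKO and 10.90 ± 2.64 in WT.

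By mean, the order of groups was DKO, WT, Ets1KO, Ets2KO for Ptgs2 and Lif, and DKO, WT, Ets2KO, Ets1KO for Lcn2. For Ptgs2, DKO and WT do not overlap, WT and Ets1KO do, and Ets1KO and Ets2KO do not. For Lif and Lcn2 every pair of neighbours in the order overlaps. In these bulk RNA samples, fewer cells expressing a gene and less RNA per cell cannot be told apart.

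**Figure D1:**
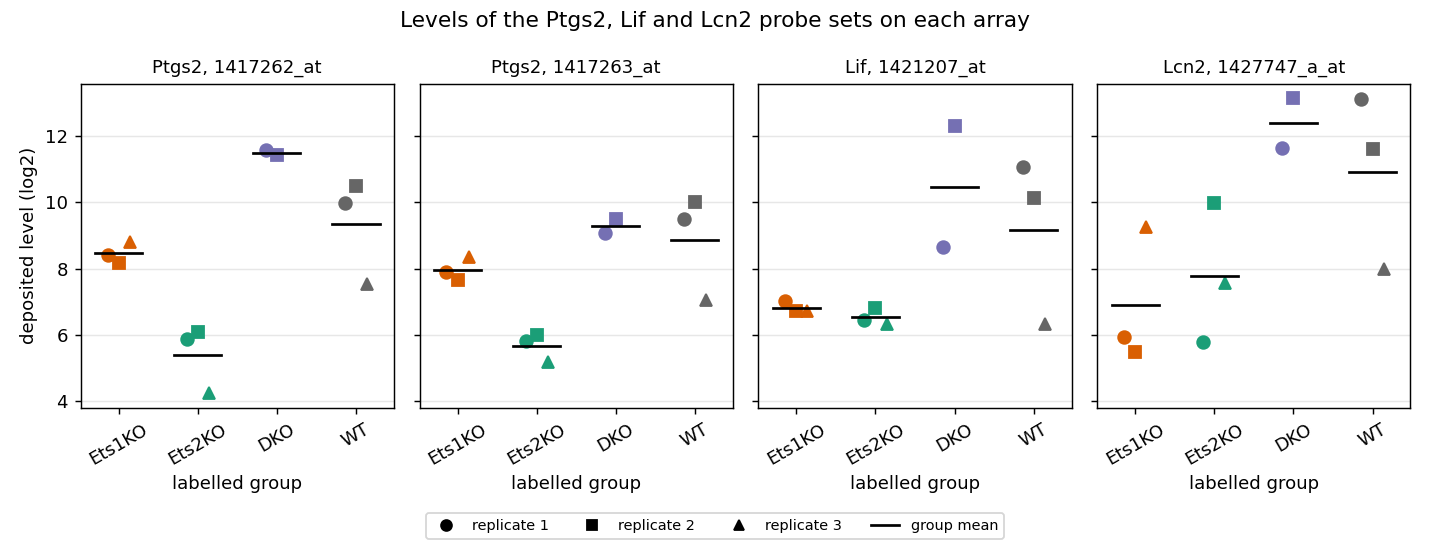
Deposited log2 level of each of the 4 probe sets (panels) by labelled group on the x axis, with a marker shape for each replicate and a line for the group mean. WT replicate 3 is the lowest WT array in every panel, and on 1417262_at the arrays labelled DKO, at 11.41 and 11.58, lie above all others.

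In Ets1KO against WT, the difference was -0.92 for Ptgs2 (SE 0.76), -2.39 for Lif (SE 1.22) and -4.05 for Lcn2 (SE 1.56), relative to array medians, and -0.88, -2.35 and -4.01 as deposited. None of the 3 separates the groups, and 11.5% of all genes lie below WT without overlap (9.08% as deposited). The values depend on which WT arrays are used. Without WT replicate 3 the differences were larger, at -1.85, -3.84 and -5.54. Without WT replicate 1 they were smaller, at -0.56, -1.40 and -2.91, and without WT replicate 2 Ptgs2 gave -0.33. SEs are those of the model over all 11 arrays.

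In Ets2KO against WT, Ptgs2 stood out: -3.92 (SE 0.76) relative to array medians and -3.93 as deposited, a level 15.2-fold lower. It is the 1 of 3 members whose groups do not overlap, where 13.4% of all genes lie below WT in that way (14.1% as deposited). Lif differed by -2.62 (SE 1.22) and Lcn2 by -3.10 (SE 1.56), with WT replicate 3 inside or below the Ets2KO range for both. Without WT replicate 3 the 3 differences were -4.85, -4.08 and -4.59. Without WT replicate 1 Lif gave -1.64 and Lcn2 -1.96. By Xist and Eif2s3y, WT replicate 1 and all Ets2KO arrays have a male pattern (Eif2s3y 9.30 to 10.23, against 3.12 to 3.66 on the others), so sex is not balanced. Xist read 3.86 to 4.32 on these male pattern arrays and 6.85 on WT replicate 3. On the remaining arrays it read 9.23 to 10.90, so WT replicate 3 is female by Eif2s3y but in between by Xist. Against WT replicate 1 alone, the Ets2KO differences were -4.63 for Ptgs2, -4.58 for Lif and -5.39 for Lcn2.

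The arrays labelled DKO stood above WT by 2.88 for Ptgs2 (SE 0.85), 2.02 for Lif (SE 1.37) and 2.20 for Lcn2 (SE 1.74) relative to array medians, and by 2.16, 1.30 and 1.48 as deposited. Ptgs2 alone does not overlap WT, while 30.2% of all genes lie above WT without overlap relative to array medians and 5.63% as deposited. Lif and Lcn2 rest on few arrays. Without WT replicate 3 their differences were 0.57 and 0.71, and Ptgs2 gave 1.94. Without WT replicate 1, Lif gave 3.004 and Lcn2 3.35. Without DKO replicate 2 Lif gave 0.17 and Lcn2 1.43, and without DKO replicate 1 Lif gave 3.88.

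Against the single knockouts all 3 genes were higher on both arrays labelled DKO, with no overlap on either scale. Relative to array medians, DKO exceeded Ets1KO by 3.80 for Ptgs2, 4.41 for Lif and 6.25 for Lcn2, and exceeded Ets2KO by 6.80, 4.64 and 5.31. As deposited the same differences were 3.04, 3.65 and 5.49 over Ets1KO, and 6.09, 3.94 and 4.60 over Ets2KO. Non-overlap in this direction holds for 36.2% of all genes over Ets1KO and 32.3% over Ets2KO relative to array medians, and for 5.66% and 6.63% as deposited. All Ets2KO arrays have the male pattern and both arrays labelled DKO the female one. With the sex pattern as a covariate DKO exceeded Ets2KO by 7.87 for Ptgs2, 7.59 for Lif and 8.73 for Lcn2. Only WT holds both patterns, so the covariate, set by Eif2s3y, rests on WT replicate 1 against WT replicates 2 and 3. WT replicate 3 is the low one for all 3 genes, so these values cannot show what remains after sex. Without DKO replicate 2 Lif exceeded Ets1KO by 2.55 and Ets2KO by 2.79. Comparisons that share WT, or share the arrays labelled DKO, are not independent of each other.

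**Figure D2:**
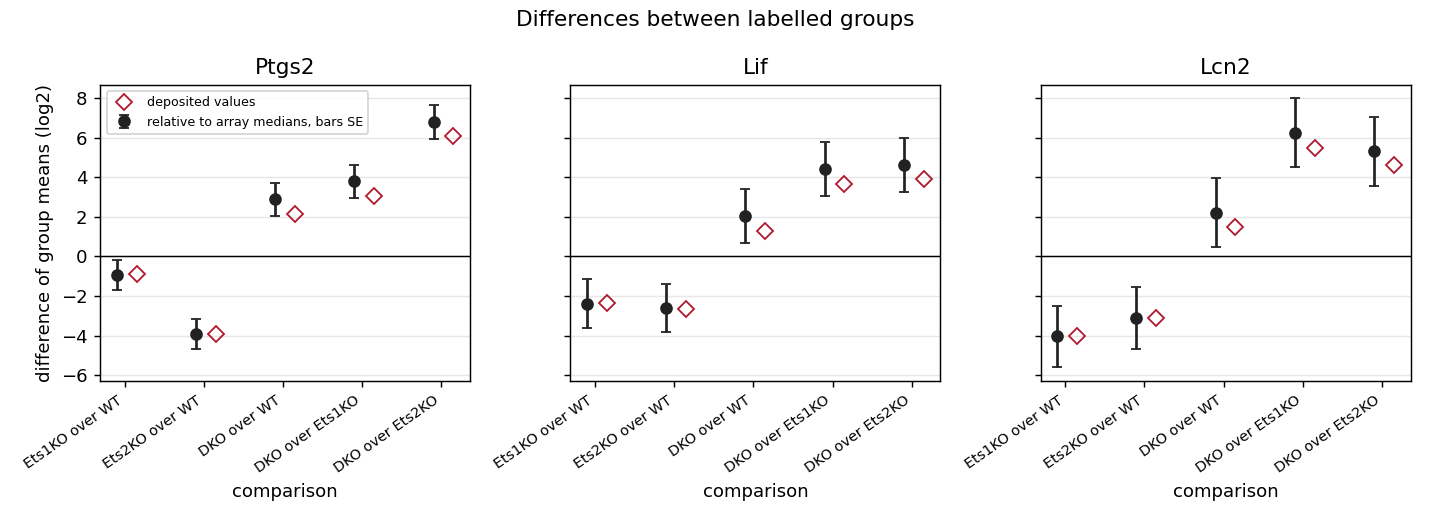
Difference of group means in log2 for 5 comparisons (x axis) in 1 panel per gene. Filled circles are relative to array medians with SE bars and open diamonds are deposited values. Every point for the single knockouts lies below 0 and every point for DKO lies above 0, from 1.30 (Lif over WT, deposited) to 6.80 (Ptgs2 over Ets2KO).

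The second Ptgs2 probe set, 1417263_at, gave the same order of group means, but with DKO and WT overlapping. It read 7.90, 7.64 and 8.36 in Ets1KO, 5.81, 5.99 and 5.19 in Ets2KO, 9.08 and 9.49 on the arrays labelled DKO, and 9.50, 10.001 and 7.06 in WT. Here Ets2KO again lies below all other arrays, by -3.17 against WT relative to array medians and -3.19 as deposited. The arrays labelled DKO overlap WT on both scales, with a mean 1.15 above the WT mean relative to array medians and 0.43 above it as deposited. Both probe sets thus place the DKO mean above WT, and 1 of the 2 separates the groups. The cause of this disagreement was not tested.

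The 3 genes varied far more among arrays of a group than most genes did. The residual SD was 1.05 for Ptgs2, 1.71 for Lif and 2.17 for Lcn2, against a median of 0.274, and 95.3%, 99.3% and 99.8% of genes had a smaller one. WT replicate 3 deviated most from its group mean, by -1.88 for Ptgs2, -2.91 for Lif and -2.98 for Lcn2. For Lcn2, WT replicate 1 (2.28), Ets1KO replicate 3 (2.34) and Ets2KO replicates 1 (-1.99) and 2 (2.23) deviated widely too. The scatter was shared only in part. In Ets2KO, replicate 2 was above its group mean for all 3 genes, while on Ets1KO replicate 3, high for Lcn2, Lif deviated by -0.12. Across the 11 arrays Pearson's r was 0.803 for Ptgs2 and Lif, 0.720 for Ptgs2 and Lcn2 and 0.865 for Lif and Lcn2. For deviations from group means the same pairs gave 0.651, 0.627 and 0.664. These arrays share their groups and the scaling, so the correlations only describe them.

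**Figure D3:**
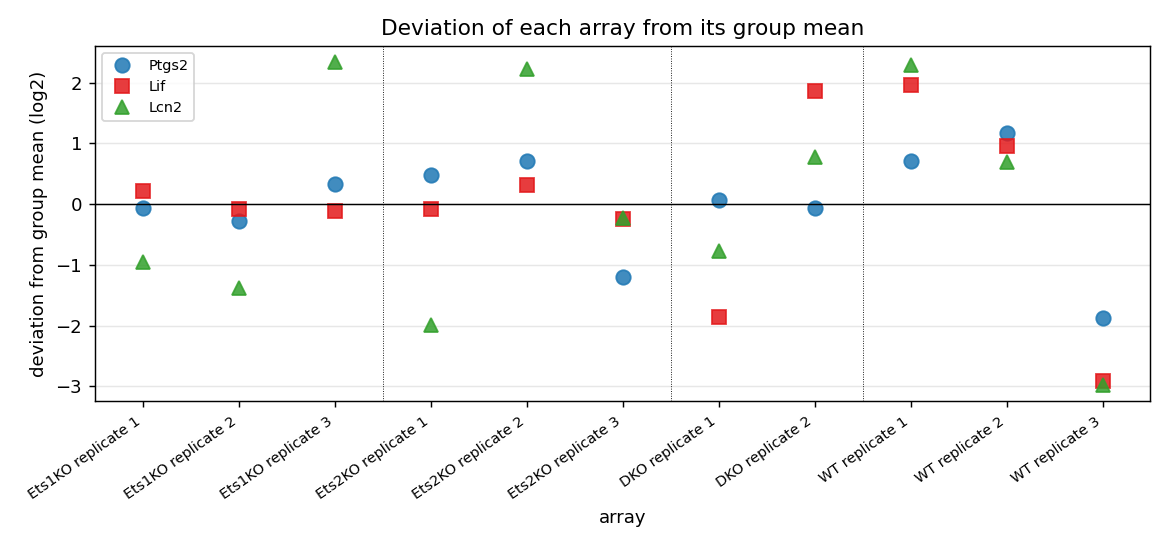
Deviation of each of the 11 arrays from its group mean in log2 (y axis) for Ptgs2, Lif and Lcn2. All 3 genes are lowest relative to their group on WT replicate 3, at -1.88 for Ptgs2, -2.91 for Lif and -2.98 for Lcn2.

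Of the brighter genes (mean over the median of all genes), those whose profile over the 11 arrays was most like Ptgs2 were Pkn2, a protein kinase (r = 0.972), Cdv3 (0.947), Tjp1, a tight junction scaffold (0.934), Spcs3, a signal peptidase subunit (0.925), and Npm1, a nucleolar chaperone (0.921). Lif was closest to Stx6, a syntaxin of the trans-Golgi (0.950), Nfkbia, the inhibitor that holds NF-kappa-B in the cytoplasm (0.932), Glrx, a glutaredoxin (0.930), Zfp281 (0.918) and Fam3c (0.902). Lcn2 was closest to the monocyte chemokine Ccl2 (0.906), to Nfkbia (0.903), Eif4h (0.888), Arih2 (0.861) and Coq2 (0.855). For deviations from group means, r fell between 0.365 (Npm1) and 0.838 (Pkn2) for the Ptgs2 set, between 0.791 (Fam3c) and 0.895 (Zfp281) for the Lif set, and between 0.719 (Arih2) and 0.851 (Ccl2) for the Lcn2 set. All these r use values relative to array medians. As deposited, the mean on the arrays labelled DKO was the lowest of the 4 groups for Npm1 (13.47), Eif4h (12.59), Arih2 (10.24) and Coq2 (9.62). That mean was the highest for Spcs3, Stx6, Nfkbia, Glrx, Zfp281 and Fam3c, as for the 3 members. For Pkn2, Cdv3, Tjp1 and Ccl2 it lay in between. Nfkbia, shared by Lif and Lcn2, read 12.07 to 12.52 in Ets1KO, 11.83 to 12.33 in Ets2KO, 13.19 and 13.37 on the arrays labelled DKO, and 13.72, 13.34 and 12.16 in WT, with WT replicate 3 again the lowest of its group.

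The 6 gene lists place the members in their pathways, with 100 of 143 listed genes measured and the 3 members left out. In Ets1KO against WT, 0 of the 100 passed limma's test at adjusted p under 0.05, where 0.00908% of all genes did. An unadjusted p under 0.05 was held by 21 of the 100 and by 959 of all 11015 genes. Of the 100, 74 lay below 0, beside 5923 of all 11015 genes, with a median of -0.35 beside -0.03 over all genes. The lists were chosen with earlier results known and their genes share the same WT arrays, so this count was not tested. The genes with the largest differences in each list follow, none of them past the test. Ccl2 differed by -4.30, Ccl7, another monocyte chemokine, by -3.16, and the acute phase gene Saa3 by -2.92. Steap4, a metalloreductase, differed by -2.05, and Nfkbiz, the NF-kappa-B co-regulator on which Lcn2 induction depends, by -1.87. The prostaglandin E synthase Ptges differed by -1.73, the phosphatase Dusp1 by -1.68, the prostaglandin receptor Ptger4 by -1.63, Bcl3 by -1.48, the RNase Zc3h12a by -1.37, the oncostatin M receptor Osmr by -1.21 and Il6st by -0.83. Il6st probe sets disagreed in sign, with 1.13 on 1. Without WT replicate 3, 5 list genes passed, where 23 of all 11015 genes did, among them Steap4 (-3.08), Bcl3 (-1.82) and Zc3h12a (-1.84).

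In Ets2KO against WT, 1 of the 100 list genes passed, against 0.436% of all genes. That gene was Nfkbiz, which fell by 2.84 (SE 0.35, limma adjusted p = 0.0230). It read 8.19, 9.11 and 8.81 in Ets2KO, against 11.64, 12.05 and 10.99 in WT, and its other probe sets gave -2.81 and -0.95. The adjusted p was 0.0505 without WT replicate 1, 0.0633 without WT replicate 2, 0.102 without Ets2KO replicate 1 and 0.0746 without Ets2KO replicate 3. Of the 100, 68 lay below 0, beside 5588 of all 11015 genes, with a median of -0.25 beside -0.01 over all genes. An unadjusted p under 0.05 was held by 32 of the 100 and by 2082 of all genes. Among those that did not pass were Ccl2 (-4.06), Ccl7 (-3.30), Saa3 (-3.21), Dusp1 (-2.77), the C/EBP factor Cebpd (-2.49, with -0.48 on its other probe set), the kinase Pim1 (-1.60), the prostaglandin exporter Abcc4 (-1.46) and the phospholipase Pla2g4a (-0.95). Serpina3n, an acute phase protease inhibitor (2.62), and Ctf1, a cytokine of the same family as Lif (1.49), lay the other way. Without WT replicate 3, 9 list genes passed, where 74 of all 11015 genes did, among them Ccl2 (-5.84) and Ccl7 (-4.74).

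**Figure D4:**
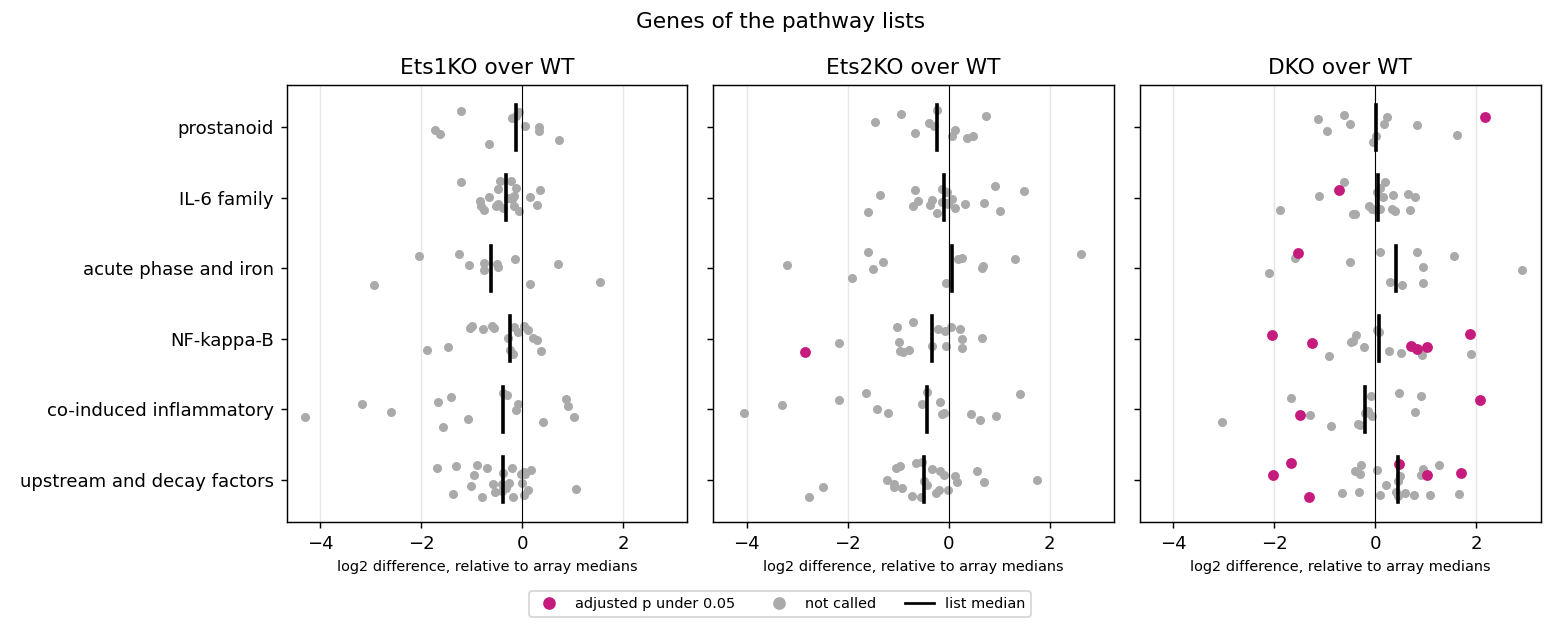
Log2 difference relative to array medians (x axis) of the measured genes in each of 6 lists (rows) for 3 comparisons with WT, with called genes coloured and a line at each list median. In Ets1KO and Ets2KO, 74 and 68 of the 100 genes lie below 0, beside 5923 and 5588 of all 11015 genes. Called are 0, 1 and, for DKO, 17 of the 100, beside 0.00908%, 0.436% and 28.3% of all genes.

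On the arrays labelled DKO, 9 list genes were higher than WT and 8 lower by the test relative to array medians, where 28.3% of all genes passed (1801 higher, 1317 lower). As deposited the split was 1 higher and 34 lower, where 45.9% of all genes passed (256 higher, 4798 lower). The list median was 0.09 beside 0.11 over all genes. Pla2g4a, the phospholipase that releases arachidonic acid for Ptgs2, rose by 2.16 (SE 0.32, limma adjusted p = 0.00199) and by 1.44 as deposited, where it passed too. It read 11.32 and 10.67 on the arrays labelled DKO, against 9.22, 10.16 and 9.26 in WT. The interleukin-1 receptor antagonist Il1rn fell by 1.48 (its other probe set gave -0.42) and Cebpa by 2.03, and both also passed as deposited.

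NF-kappa-B genes went both ways. Rela, the transactivating subunit, fell by 1.25 (limma adjusted p = 0.00160) and Nfkb2, the precursor subunit of the alternative pathway, fell by 2.04, although another Nfkb2 probe set gave -0.33. The kinase Map3k8 was higher by 1.87, the ubiquitin ligase Birc2 by 1.02 and the inhibitor Tnip1 by 0.83, and none of these rises passed on deposited values. The same holds for the cytokine Il18 (2.08), the AP-1 subunit Fosl2 (1.70) and Creb1 (1.02, with 0.16 and -0.14 on its other probe sets). Jun fell by 1.32, the mRNA-stabilising kinase Mapkapk2 by 1.66, the Stat3 inhibitor Pias3 by 0.73 and the iron transporter Slc11a2 by 1.53, the last with 0.27 and -0.49 on its other probe sets. The calls were fragile with so few arrays. Without DKO replicate 1 they were lost for Map3k8 (1.95), Tnip1 (0.90), Il18 (2.19), Fosl2 (1.05), Cebpa (-1.49) and Jun (-0.99). Without DKO replicate 2 they were lost for Map3k8 (1.79), Tnip1 (0.75), Il18 (1.97), Mapkapk2 (-1.65) and Pias3 (-0.59). Without WT replicate 2 they were lost for Map3k8 (1.97), Tnip1 (0.77) and Pias3 (-0.58), without WT replicate 3 for Tnip1 (0.71) and Fosl2 (1.52), and without Ets1KO replicate 2 for Tnip1.

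Against Ets1KO, 17 list genes were higher and 7 lower on the arrays labelled DKO, beside 28.7% of all genes called in either direction (1916 higher, 1241 lower). As deposited the split was 5 higher and 23 lower, beside 44.5% of all genes. Against Ets2KO it was 24 higher and 9 lower, beside 30.3% of all genes (1882 higher, 1454 lower), and as deposited 12 higher and 28 lower, beside 46.3% of all genes. Sex pattern differs between all Ets2KO arrays and the arrays labelled DKO. With it as a covariate, 5 list genes and 261 of all genes passed relative to array medians in that comparison. The covariate is estimated within WT alone.

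Cell type markers were read as the mean level of each list relative to array medians. Only 4 of 15 endothelial markers had a value (Kdr, Flt1, Eng and Egfl7), at -1.83 to -1.39 in Ets1KO, -1.24 to -0.63 in Ets2KO, -1.78 to -1.20 on the arrays labelled DKO and -1.67 to -0.74 in WT. For neutrophils, which store lipocalin-2, 0 of 8 markers had a value here, and for macrophages 5 of 12 did, at -1.93 to -1.81, -2.60 to -2.18, -2.17 to -1.86 and -2.13 to -1.64 in the same order of groups. The 7 of 8 fibroblast markers with a value were at 0.17 to 0.996 in Ets1KO, 0.54 to 1.54 in Ets2KO, 1.93 and 1.28 on the arrays labelled DKO and 0.76 to 1.24 in WT. The arrays labelled DKO overlapped Ets2KO and lay above Ets1KO and, by a narrow gap (1.28 against 1.24), above WT. On this scale 30.2% of all genes, taken singly, lie above WT without overlap and 36.2% above Ets1KO, whereas the marker value is a mean of 7 genes. The marker lists were not read on deposited values. The 5 of 8 smooth muscle markers were at -0.71 to 0.36 in Ets1KO, -0.97 to -0.36 in Ets2KO, 0.83 and -0.43 on the arrays labelled DKO and -0.66 to 0.46 in WT. The 4 measured mesothelial and epithelial markers were at 0.35 to 0.79 in Ets1KO, -1.43 to -1.07 in Ets2KO, 0.11 and 0.20 on the arrays labelled DKO, and -2.09, -1.09 and 0.28 in WT. WT replicate 3, low for all 3 members, was the WT array highest in the mesothelial and epithelial markers (0.28) and in the macrophage markers (-1.64). It was also the lowest WT array in the endothelial (-1.67) and smooth muscle markers (-0.66). Ets2KO, lowest by mean for Ptgs2 and Lif, was lowest by mean in the mesothelial and epithelial (-1.31), macrophage (-2.41) and smooth muscle markers (-0.73). It was highest by mean in the endothelial markers (-0.997) and in between in the fibroblast markers (0.91). The part of these markers in the members' levels was not tested. RMA values have no true zero and no detection calls were used.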

How the data were processed

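RNA from cultured aortic endothelial cells was measured on Affymetrix arrays. The deposited values are log2 expression per probe set, made with RMA (per the submitters' processing notes, with no version given in the sources used here). Platform annotation gave 1 symbol for 18824 of the 20523 probe sets, several for 549 and none for 1150. Genes, 11015 in all, were tested on their probe set of highest mean. Column 3 of DKO is, within 1e-05, the average of the other columns of that group for 20521 probe sets and was left out, so 11 arrays were used, a departure from the planned 12. Each array's median over these genes was subtracted. The model had 4 group means (limma 3.58.1 under R 4.3.3, with 7 residual and 2.14 prior degrees of freedom), with Benjamini-Hochberg adjustment within each comparison and a threshold of 0.05. The number of arrays limits the precision.

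The members and lists were chosen with earlier results of these data known. Named are the members, Ets1, Ets2, from each of 6 lists up to 5 called genes without overlap by size (up to 2 by size where none is called), and the 5 genes closest to each member by Pearson's r. Alternatives were deposited values, quantile normalization, the mean of probe sets, a filter on low values, all probe sets, all 12 columns, 2 groups only, the sex pattern as a covariate, the replicate block and leaving out each array. Samples with the same number did not deviate together beyond the set limit of r over 0.1 in every pair (lowest r -0.32, highest 0.10). On simulated data with errors drawn for each gene, the fit recovered 91%, 94% and 88% of genes changed by a log2 of 3 in Ets1KO, Ets2KO and DKO against WT. Of those changed by 1 it recovered 55%, 34% and 46%, with 9, 5 and 5 false calls. The errors were independent between arrays and the changed genes were drawn from all genes. These shares therefore do not apply to genes as variable between arrays as the members. Plots used matplotlib 3.10.9 (Python 3.11.15). Promoter sequences are RefSeq's.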

Additional observations from a re-analysis of the deposited data

Results flagged for a closer look

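Ptgs2 differed in opposite directions between the groups with and without the Cre virus in the 2 Ets1 backgrounds as labelled. Ets2KO and WT also differ in floxed Ets2 and in the balance of sex patterns. On the arrays labelled DKO the brightest Ets1 probe set is not low. Relative to array medians, DKO minus Ets1KO was 3.80 and Ets2KO minus WT was -3.92, with every array on its side, and the difference between these was not tested, since the gene was picked on these values.

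For genes of the pathway lists the same difference, by label the one without Ets1 minus that with Ets1, was tested as limma's interaction. It passed for 15 of the 32 list genes named, where 14.5% of all 11015 genes passed, and those 32 were named for their size in the same arrays. It was positive for Ccl2 (8.20), Ccl7 (6.40), Nfkbiz (4.99), Dusp1 (4.91), Cebpd (4.38), Map3k8 (3.87), Zc3h12a (2.68), Fosl2 (2.59), Pla2g4a (2.38), Bcl3 (2.00), Birc2 (0.91) and Creb1 (0.86). It was negative for Cebpa (-2.88), Pias3 (-1.77) and Rela (-0.99). These values include the arrays labelled DKO, whose brightest Ets1 and Ets2 probe sets are not low.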

How the results depend on the processing

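All 258 values of the members' differences under the alternatives kept their sign, and most moved by less than the pooled SD of the 2 groups compared. That limit is wide for these genes. For Lif in DKO over WT it is 2.59, beside a difference of 2.02, so staying within it says little about stability. Many of the 258 values could not move, since leaving out an array outside a comparison repeats its main value. The count of 258 thus overstates the number of separate checks. For Lif in Ets2KO against WT, the sex pattern as a covariate and the male pattern arrays alone each gave -4.58. For DKO over Ets2KO the sex covariate gave 7.87 for Ptgs2, 7.59 for Lif and 8.73 for Lcn2. Only WT holds both sex patterns, so this covariate is estimated within WT alone. For Ptgs2 in DKO over Ets1KO, deposited values gave 3.04 and the mean of probe sets 2.94, and over Ets2KO the mean of probe sets gave 5.56. The causes were not tested beyond what each setting changes by construction.

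The replicate block gave 3.34 for Ptgs2 in DKO over Ets1KO, 4 genes called in Ets1KO against WT, and 0 genes and 0 list genes in Ets2KO against WT (limma, with 2082 genes at an unadjusted p under 0.05 without the block). It also ended the calls of Nfkbiz in Ets2KO (-2.84, limma adjusted p = 0.0573) and of Map3k8 (1.69) and Tnip1 (0.86) in DKO against WT. The design does not pair the samples. By the data, arrays correlated best with their own number for 3 of 3 numbers in Ets1KO and WT and for 0 of 3 in Ets2KO and WT. The mean of probe sets ended the calls of Slc11a2 (-0.58) and Creb1 (0.34), and quantile normalization that of Tnip1 (0.73).

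Genes called in Ets1KO against WT numbered 1, against 11 with all 12 columns, 5 without the arrays labelled DKO and 0 with the 2 groups alone (959 had an unadjusted p under 0.05 in the 11 arrays). For Ets2KO against WT the 48 became 4 with the sex covariate, 326 with 12 columns, 21 among genes above the median, 126 over all probe sets, 16 without DKO and 0 with the 2 groups alone, and the 1 list gene became 2 with the mean of probe sets, 10 with 12 columns and 0 with the 2 groups alone. For DKO against WT the 3118 became 5054 as deposited, 1758 above the median, 6964 over all probe sets and 1325 with 2 groups, and the 17 list genes became 35, 28 with 12 columns, 10 above the median and 6 with 2 groups. Against Ets1KO the 3157 became 4900 as deposited, 1842 above the median and 6703 over all probe sets, and the 24 list genes 38 with 12 columns and 14 above the median. Against Ets2KO the 3336 became 5103 as deposited, 261 with the sex covariate, 1899 above the median, 6858 over all probe sets and 1886 with 2 groups, and the 33 list genes 5 with the sex covariate and 17 above the median.

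Leaving out 1 array at a time, genes called ranged from 1 to 23 in Ets1KO against WT, 2 to 74 in Ets2KO against WT, 1926 to 3424 in DKO against WT, 2010 to 3527 in DKO over Ets1KO and 2275 to 3646 in DKO over Ets2KO. List genes ranged from 0 to 5, 0 to 9, 13 to 22, 15 to 29 and 19 to 38 in the same order. Ptgs2 ranged from -1.85 to -0.33, -4.85 to -3.32, 1.94 to 3.46, 3.66 to 3.97 and 6.20 to 7.15. Lif ranged from -3.84 to -1.40, -4.08 to -1.64, 0.17 to 3.88, 2.55 to 6.26 and 2.79 to 6.50. Lcn2 ranged from -5.54 to -2.91, -4.59 to -1.96, 0.71 to 3.35, 5.48 to 7.42 and 4.31 to 6.42. Leaving out the arrays labelled DKO and keeping male pattern arrays alone were chosen after seeing the data.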
